A study of Homo sapiens with 6 samples.

Results

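The primary cilium genes described here are 45 genes of the intraflagellar transport trains, the BBSome and the transition zone, with some of their partners. They were chosen by name from lists of ciliary proteins, and all 45 symbols matched 1 Ensembl gene ID each among the 57773 IDs of the deposited table. The table holds 6 RNA-seq libraries of RPE1, a human cell line derived from retinal pigment epithelium, made immortal with telomerase and widely used to study ciliogenesis. In 3 libraries the cells had been given 2.5 µM Nutlin-3, which blocks the binding of p53 by its ubiquitin ligase MDM2, and in 3 libraries they had been given the solvent DMSO, both for 24 h. All cells grew in medium with fetal bovine serum, and no serum withdrawal is described. Both groups are the same line, so nothing here speaks for other cells. The labels number the libraries as replicates but do not say whether these were separate cultures. The p-values therefore rest on the spread among these libraries alone, and that spread may be technical.

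A primary cilium is a single antenna of microtubules that grows from the mother centriole of a cell that is not dividing, and it is taken down again before mitosis. Kinesin-II carries trains of IFT-B and IFT-A proteins to its tip, and a ciliary dynein carries them back. The BBSome is a coat that rides on these trains and moves membrane receptors, and the transition zone at the base acts as a gate for proteins and lipids.

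Values are RPKM as the authors deposited them, reads per kilobase and per M of a library size. That size was 0.987 to 1 of the reads recovered here in DMSO and 0.923 to 0.942 of them in Nutlin-3 libraries. The low values show that the kilobases are those of the whole gene span, introns included, so RPKM is low in long genes whatever their number of reads. Levels are therefore compared between genes only on an exon-based RPKM, computed here from the recovered reads and the merged exons of each gene. Every member was above 0 in every library, with 106 to 4266 recovered reads per member and library. Differences are given on the log2(RPKM + 0.1) scale, tested by limma on the 19886 genes whose mean reached 0.1 RPKM, and a gene is said to have risen or fallen where the adjusted p (Benjamini-Hochberg over all of them) was under 0.05. The filter left 44 of the 45 members, all but BBS9.

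As a check of the treatment, CDKN1A, the p53 target that encodes p21, rose 7.24-fold and MDM2 rose 3.66-fold (limma adjusted p = 6.6e-05 and 6.75e-05). All 8 proliferation genes of a fixed list fell, with MKI67 at 27.3% of its DMSO level (limma adjusted p = 8.69e-05). RNA of cells in different phases is mixed in these samples, so fewer cells of one kind and less RNA per cell cannot be told apart. The library sizes behind the RPKM were 29.8 to 42.3 M, and no library stood apart in the median of the members. Of 10 retinal pigment epithelium markers 8 were under the filter, such as the visual cycle enzyme RPE65 at 0.0155 exon-based RPKM in DMSO. The transcription factors OTX2 and MITF of that list were at 9.50 and 6.59. In a list of 8 markers of cultured epithelial lines, VIM was at 857 and KRT18 at 50.9 exon-based RPKM in DMSO. KRT19 and CDH1 of the same list were under the filter, at 0.0596 and 0.0342. OTX2 fell to 81.9% of its DMSO level (limma adjusted p = 0.0333), a call that ended without DMSO replicate 1 or 2 or Nutlin-3 replicate 1 or 3 (0.097 to 0.0991) and with no filter (0.0602). KRT18, a keratin of simple epithelia, rose 1.74-fold (limma adjusted p = 3.14e-04). MITF did not pass. Of 14 markers of motile ciliated cells 13 stayed under the filter, and RSPH1 among them was at 0 in every library. Their summed RPKM was 0.221 to 0.256 in DMSO and 0.234 to 0.295 in Nutlin-3 libraries, of which CCDC40, the 1 tested marker, made up 0.126 and 0.144 in the means and did not pass. On the recovered reads the axonemal genes DNAH5 and HYDIN rose 1.51-fold and 1.26-fold in mean RPKM (limma voom adjusted p = 3.89e-04 and 0.00762), from 0.0107 and 0.0102 RPKM. The part of these markers in the changes of the members was not tested.

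Some promoters of these genes held an X-box. The X-box is the binding motif of RFX transcription factors, which are known to drive ciliary genes, and it is an inverted repeat of a pair of half-sites with a short spacer. In the RefSeq promoter table (GRCh38.p14, 250 bases before to 50 after each gene start), 40 of the 45 members had an entry. An X-box with a spacer of at most 3 bases, on either strand, stood in 6 of these 40 (15.0%), against 354 of all 27303 promoters (1.30%). The 6 matches are shown because they cross the lines of the response. They stood in 3 of 14 promoters of members that rose, 2 of 8 that fell and 1 of 18 that did not pass. Half-sites are in capitals.

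TCTN3 (rose): ctgacgGTTGCCaGGCAACggaggc
TCTN1 (rose): gtcgcgGTTGCCgGGCAACgcgctg
B9D1 (rose): gggactGTTACCttGGCTACtggctc
IFT122 (fell): atgtacGTTGCCaggGGTAACgcaggt
B9D2 (fell): cctgctGTTGCCccAGCAACaaccac
IFT57 (not passed): ccggtgGTCGCCtGGTAACcggtcg

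The TCTN3 match lies at chr10:95694130-95694142 on the minus strand, with its first base 215 bases before the gene start. The IFT122 match begins 12 bases before its start, at chr3:129440212-129440226 on the plus strand, and that of B9D2 begins 8 bases before its start, at chr19:41364144-41364157 on the minus strand. The B9D1 match reads as the consensus on the other strand. A transition zone gene held 4 of the 6 matches. The half-site GTTGCC by itself, searched after these matches were seen and part of 4 of them, stood in 18 of 40 member promoters (45.0%) and in 12.2% of all promoters. It was found in 7 of 14 promoters of members that rose, 4 of 8 that fell and 7 of 18 that did not pass, so the share was the same for both directions.

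Motifs of cell cycle genes were looked for in the same windows. The cell cycle homology region CHR (TTTGAA or TTCGAA, either strand), known from genes of late cell cycle phases, stood in 2 of 40 member promoters (5.00%) against 16.6% of all. The E2F motif (TTTCGCGC or TTTGGCGC, either strand) stood in 0 of 40 against 1.18% of all, and CCAAT, the NF-Y motif, in 18 of 40 (45.0%) against 35.7%. The 250 bases before the start of 4 members follow, from the largest changes in each direction, with X-box, GTTGCC and CCAAT matches in capitals on either strand. TCTN3 (chr10:95693928-95694177, minus strand) holds an X-box, IFT27 (chr22:36776120-36776369, minus strand) and TULP3 (chr12:2890641-2890890, plus strand) hold single half-sites beside CCAAT boxes, and ODF2 (chr9:128454935-128455184, plus strand), the gene with the largest fall, holds no match to any of these motifs.

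TCTN3: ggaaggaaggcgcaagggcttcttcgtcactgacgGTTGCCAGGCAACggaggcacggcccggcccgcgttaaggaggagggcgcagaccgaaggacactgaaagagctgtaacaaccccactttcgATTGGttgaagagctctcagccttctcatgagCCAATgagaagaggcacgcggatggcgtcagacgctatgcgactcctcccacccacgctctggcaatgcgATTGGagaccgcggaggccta
IFT27: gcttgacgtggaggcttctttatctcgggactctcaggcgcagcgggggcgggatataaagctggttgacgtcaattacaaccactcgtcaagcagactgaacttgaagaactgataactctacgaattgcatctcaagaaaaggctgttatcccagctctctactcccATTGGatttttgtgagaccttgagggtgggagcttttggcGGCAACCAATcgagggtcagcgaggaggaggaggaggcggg
TULP3: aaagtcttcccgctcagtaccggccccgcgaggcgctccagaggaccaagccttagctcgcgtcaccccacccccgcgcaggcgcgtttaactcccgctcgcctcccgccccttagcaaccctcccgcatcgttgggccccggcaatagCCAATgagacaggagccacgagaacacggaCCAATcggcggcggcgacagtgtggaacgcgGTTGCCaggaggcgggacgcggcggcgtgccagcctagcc
ODF2: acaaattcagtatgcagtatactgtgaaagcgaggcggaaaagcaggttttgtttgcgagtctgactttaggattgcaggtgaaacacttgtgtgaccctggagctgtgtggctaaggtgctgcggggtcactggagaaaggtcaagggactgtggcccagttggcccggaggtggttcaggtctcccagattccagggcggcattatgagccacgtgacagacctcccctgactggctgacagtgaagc

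With Nutlin-3 the ciliary genes changed in both directions and by small amounts. Of the 44 tested members, 14 rose, 10 fell and 20 did not pass (18 rose and 8 fell under quantile normalization). Over all genes tested, 20.9% rose and 18.4% fell, 39.2% in either direction, against 31.8%, 22.7% and 54.5% of the tested members. The median difference of the members was 0.03, and that of all genes was 0.006. The ratios of mean RPKM ran from 0.639 (ODF2) to 1.42 (BBS1). The groups did not overlap in 31 tested members, 19 higher and 12 lower with Nutlin-3, among them all 24 that passed. Over all tested genes the groups did not overlap in 53.3%, higher in 27.6% and lower in 25.7%. Changes that passed and reached 0.32 on the log2(RPKM + 0.1) scale numbered 5, which is 11.4% of tested members against 20.5% of all genes. They were BBS1, IFT27 and TCTN3 upwards (10.1% of all genes) and ODF2 and TULP3 downwards (10.4% of all genes). That count follows the scale. It was 2 with a pseudocount of 0.5 RPKM (4.55% against 14.0% of all genes), 8 with 0.02 RPKM (18.2% against 22.6%) and 10 by limma voom on the recovered reads (22.2% against 27.8%). All 24 were called the same way on the recovered reads, where voom called 18 of 45 members upwards and 11 downwards, against 25.6% and 23.9% (49.4% in either direction) of all 20882 genes tested that way.

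**Figure D1:**
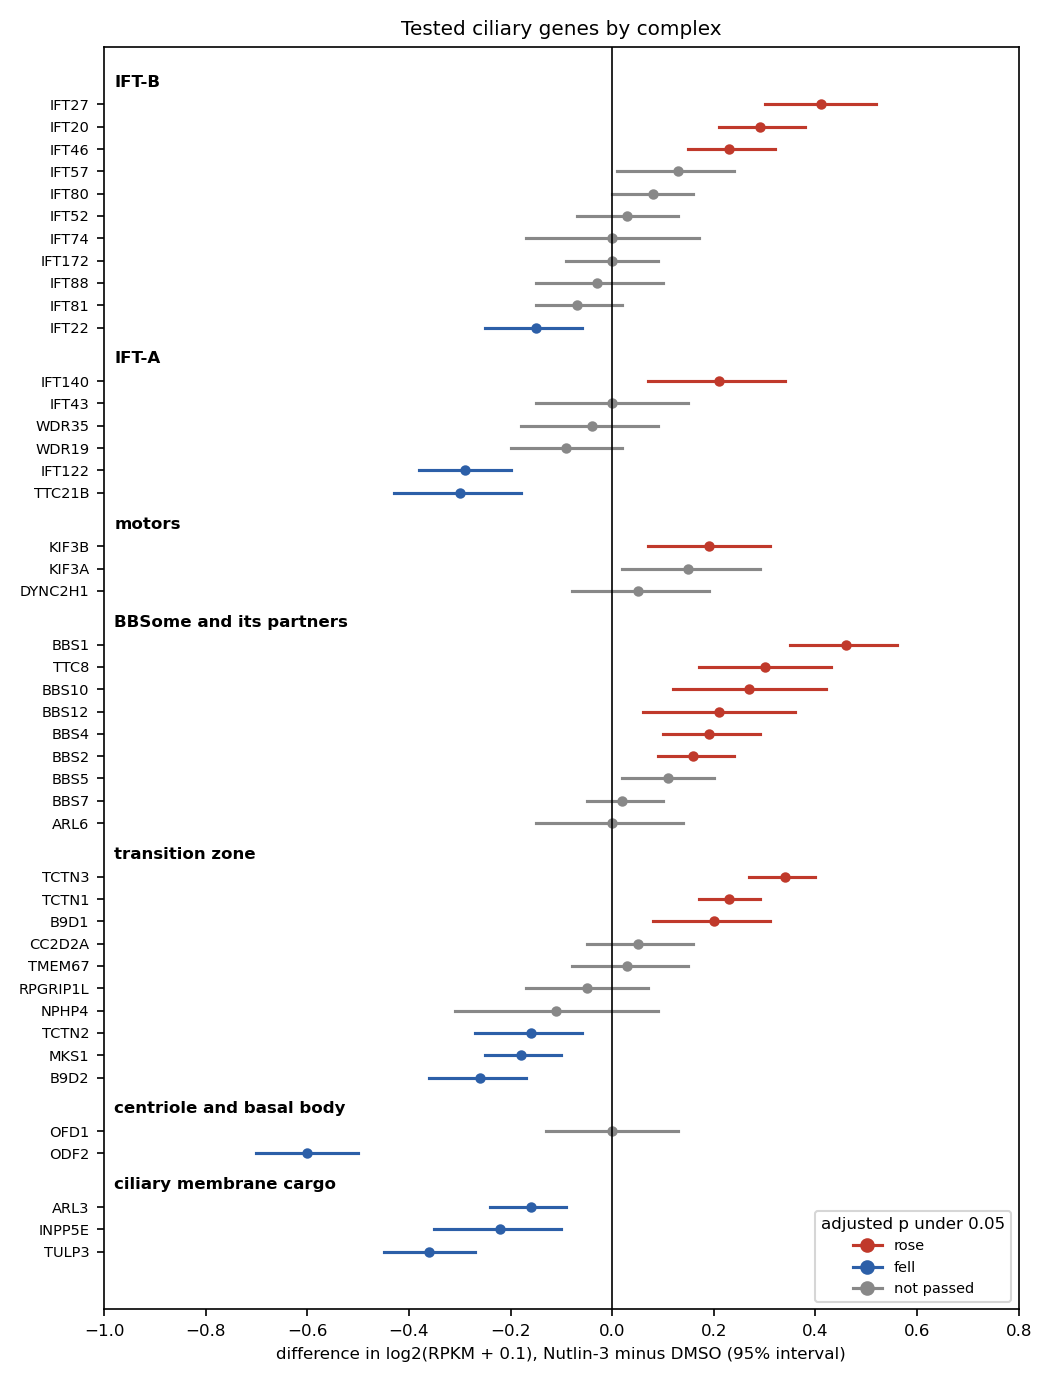
Difference in log2(RPKM + 0.1) between Nutlin-3 and DMSO for the 44 tested ciliary genes, by complex, with the point for the estimate, the line for its 95% interval and the colour for the limma call. BBSome genes lie at or right of 0, up to 0.46 for BBS1, the 3 membrane cargo genes lie left of it, and the other large groups hold both directions.

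The BBSome genes among the members that changed all rose. The members hold 7 coat subunits, the GTPase ARL6 that recruits the coat to membranes, and the chaperonin-like BBS10 and BBS12 that assemble it. Of these, 9 were tested. Among them 6 rose and 0 fell, beside 20.9% and 18.4% of all genes tested, and the median was 0.19. Of the further BBSome genes on a list given below, TRIM32 rose 1.41-fold, BBIP1 did not pass (-0.03) and MKKS fell to 84.2% (limma adjusted p = 0.0324). The call of MKKS ended without DMSO replicate 1 or 3 or Nutlin-3 replicate 1 or 2 (limma adjusted p from 0.0756 to 0.0952) and with no filter (0.0602). With the replicate number as a block the calls of BBS4, TTC8 and BBS10 ended (limma adjusted p = 0.0511, 0.0525 and 0.084). BBS1, a coat subunit that contacts ARL6, was at 0.770, 0.851 and 0.842 RPKM in DMSO replicates 1 to 3 and at 1.15, 1.17 and 1.17 RPKM in Nutlin-3 replicates 1 to 3. The groups lie far apart beside their spread, and the difference was 0.46 (SE 0.0422, limma adjusted p = 0.00101). BBS1 shares 53.9% of its exon length with AP002748.4 on the same strand, so reads of both genes may be mixed in it. TTC8, also called BBS8, was at 0.685, 0.742 and 0.726 RPKM in DMSO and at 0.973, 0.878 and 0.876 RPKM in Nutlin-3 libraries, 1.27-fold higher (limma adjusted p = 0.00819). Nutlin-3 replicate 1 was the highest and no library of one group reached the other. BBS10 was at 5.20, 4.74 and 5.26 RPKM in DMSO and at 5.89, 6.53 and 6.01 RPKM in Nutlin-3 libraries, 1.21-fold higher (limma adjusted p = 0.0183).

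The remaining tested BBSome members moved less. The coat subunits BBS2 and BBS4 rose 1.14-fold and 1.19-fold (limma adjusted p = 0.0106 and 0.0118), and the assembly factor BBS12 rose 1.18-fold (limma adjusted p = 0.0410). The call of BBS4 ended without Nutlin-3 replicate 2 (limma adjusted p = 0.05). That of BBS12 ended without DMSO replicate 1 or 2 or any 1 of the Nutlin-3 replicates, with limma adjusted p from 0.0563 to 0.119, and under median-of-ratios scaling (0.0519). Without Nutlin-3 replicate 2, 4 genes of the group rose. BBS5, BBS7 and ARL6 did not pass, with differences of 0.11, 0.02 and 0.00 and intervals of 0.02 to 0.20, -0.05 to 0.10 and -0.15 to 0.14. BBS5 shares 21.9% of its exon length with AC093899.2 on the same strand. BBS9 was under the filter, since its span of 476825 bases is the longest of the members. It was at 0.0257, 0.0300 and 0.0311 RPKM in DMSO and at 0.0386, 0.0377 and 0.0313 RPKM in Nutlin-3 libraries, which is 426 to 644 reads. The lowest Nutlin-3 library lay just above the highest DMSO library, and on the reads its difference was 0.33 (limma voom adjusted p = 0.00391).

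**Figure D2:**
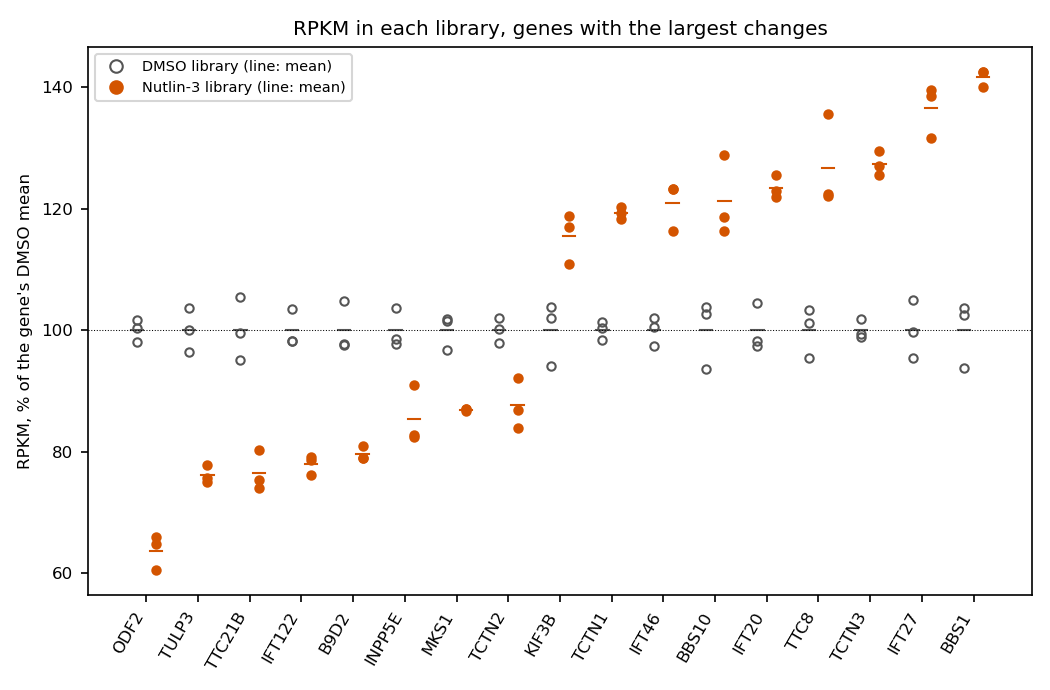
RPKM of 17 ciliary genes that passed, in each library, as a percentage of the mean of the gene's 3 DMSO libraries. They are the 8 largest rises, the 8 largest falls and KIF3B, the largest change of the motor genes. Open points are DMSO, filled points Nutlin-3 and short lines the means. In each gene all 3 Nutlin-3 libraries lie on one side of the 3 DMSO libraries, as in all 24 members that passed. The means run from 63.9% in ODF2 to 142% in BBS1.

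IFT-B, the complex of the outbound trains, changed in a few of its subunits. Of 11 tested, 3 rose and 1 fell, beside 20.9% and 18.4% of all genes tested, 7 did not pass, and the median was 0.03. IFT27, a small GTPase that links the train to the BBSome, was at 0.847, 0.933 and 0.885 RPKM in DMSO and at 1.23, 1.24 and 1.17 RPKM in Nutlin-3 libraries. The groups were well separated, with a difference of 0.41 (SE 0.0434, limma adjusted p = 0.00153). IFT20, the subunit that is also found at the Golgi apparatus, was at 2.33, 2.17 and 2.19 RPKM in DMSO and at 2.74, 2.80 and 2.72 RPKM in Nutlin-3 libraries, 1.24-fold higher (limma adjusted p = 0.00222). It shares 11.2% of its exon length with TMEM97 on the opposite strand. IFT46, a core subunit that binds IFT52, was at 0.527, 0.535 and 0.511 RPKM in DMSO and at 0.646, 0.646 and 0.610 RPKM in Nutlin-3 libraries, 1.21-fold higher (limma adjusted p = 0.00492). The 3 genes that rose kept the call without any 1 library.

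IFT22, a GTPase-like subunit, was the only IFT-B gene among the members that fell, to 89.6% of its DMSO level (limma adjusted p = 0.0283). Its call ended without DMSO replicate 1 or 2 or any 1 of the Nutlin-3 replicates, with limma adjusted p from 0.0514 to 0.0883, and under quantile normalization (0.0641). The other 7 IFT-B members did not pass. IFT88 was at 0.239 ± 0.00586 RPKM in DMSO and 0.233 ± 0.00993 RPKM in Nutlin-3 libraries (mean ± SD, n = 3 each), and its interval ran from -0.15 to 0.10. IFT52, IFT74, IFT81 and IFT172 had differences from -0.07 to 0.03. IFT57 and IFT80 were higher in each Nutlin-3 library than in any DMSO library, with differences of 0.13 and 0.08 that did not pass (limma adjusted p = 0.0761 and 0.111) and did pass on the reads (0.14 and 0.10, limma voom adjusted p = 0.0211 and 0.0427). IFT80 shares 27.2% of its exon length with AC079594.2 on the same strand. Outside the members, HSPB11 and TTC30B fell to 73.5% and 84.4% of their DMSO levels (limma adjusted p = 0.00741 and 0.0065). They belong to the list of further IFT and motor genes given below, in which 3 rose and 3 fell.

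IFT-A, the complex of the return trains, split. Of 6 tested subunits 1 rose and 2 fell, beside 20.9% and 18.4% of all genes tested, and 3 did not pass. TTC21B, the subunit also called IFT139, was at 0.416, 0.375 and 0.393 RPKM in DMSO and at 0.317, 0.297 and 0.292 RPKM in Nutlin-3 libraries, 76.4% of the DMSO level (difference -0.30, SE 0.0494, limma adjusted p = 0.00696). IFT122, of the IFT-A core, was at 0.439, 0.462 and 0.439 RPKM in DMSO and at 0.340, 0.351 and 0.353 RPKM in Nutlin-3 libraries, 77.9% of the DMSO level (limma adjusted p = 0.00265). Both were lower in every Nutlin-3 library than in any DMSO library. IFT140, also of the core, rose 1.2-fold (limma adjusted p = 0.0300), a call that ended without DMSO replicate 2 or any 1 of the Nutlin-3 replicates (limma adjusted p of 0.0692 to 0.0892), and also with no filter (0.0685). On the reads its rise was 0.27 (limma voom adjusted p = 3.62e-04). WDR19, WDR35 and IFT43 did not pass, with differences of -0.09, -0.04 and 0.00. TTC21B, IFT122 and IFT140 have a mean under 0.5 RPKM, so no IFT-A gene was called with a minimum mean of 0.5 RPKM.

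Of the 3 motor genes 1 rose, beside 20.9% of all genes tested, and 2 did not pass. KIF3B, a motor subunit of kinesin-II, was at 1.16, 1.07 and 1.18 RPKM in DMSO and at 1.26, 1.33 and 1.35 RPKM in Nutlin-3 libraries, 1.15-fold higher (limma adjusted p = 0.0277). The groups did not overlap, but the call ended without DMSO replicate 1 or 2 or Nutlin-3 replicate 2 or 3, with limma adjusted p from 0.0589 to 0.0892. KIF3A, its partner in the motor, was at 0.893 ± 0.0211 RPKM in DMSO and 1.01 ± 0.0667 RPKM in Nutlin-3 libraries (mean ± SD, n = 3 each). Its difference of 0.15 did not pass (limma adjusted p = 0.0679) and passed on the reads (0.17, limma voom adjusted p = 0.00844). DYNC2H1, the heavy chain of the ciliary dynein, had a difference of 0.05 with an interval from -0.08 to 0.19.

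The transition zone held as many rises as falls. Of 10 tested genes 3 rose and 3 fell, beside 20.9% and 18.4% of all genes tested. The other 4 did not pass, and the median was -0.01. The tectonics, related secreted or membrane proteins of this zone, did not move as one. TCTN3 was at 2.79, 2.80 and 2.87 RPKM in DMSO and at 3.54, 3.65 and 3.58 RPKM in Nutlin-3 libraries, 1.27-fold higher (difference 0.34, SE 0.0253, limma adjusted p = 5.41e-04). TCTN1 was at 1.06, 1.07 and 1.04 RPKM in DMSO and at 1.26 ± 0.0126 RPKM (mean ± SD, n = 3) in Nutlin-3 libraries, 1.19-fold higher (limma adjusted p = 0.00139). The libraries of each group lay close together in both genes. TCTN2 was at 0.631, 0.617 and 0.643 RPKM in DMSO and at 0.529, 0.547 and 0.581 RPKM in Nutlin-3 libraries, 87.6% of the DMSO level (limma adjusted p = 0.0262). That call ended without any 1 DMSO replicate or Nutlin-3 replicate 1 or 2, where limma adjusted p ran from 0.0573 to 0.0859, with no filter (0.0543) and under quantile normalization (0.0569).

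The B9-domain proteins B9D1, B9D2 and MKS1, which form one module of the gate, also parted. B9D2 was at 0.442, 0.475 and 0.443 RPKM in DMSO and at 0.367, 0.358 and 0.358 RPKM in Nutlin-3 libraries, 79.6% of the DMSO level (limma adjusted p = 0.00456). It has the fewest reads of the members, 106 to 182 per library. MKS1 was at 0.688, 0.656 and 0.691 RPKM in DMSO and at 0.590, 0.590 and 0.588 RPKM in Nutlin-3 libraries, 86.8% of the DMSO level (limma adjusted p = 0.00753). Both falls kept the call without any 1 library. B9D1 rose 1.18-fold (limma adjusted p = 0.0221), a call that ended without DMSO replicate 1 or 2 or Nutlin-3 replicate 1 or 3, with limma adjusted p from 0.0518 to 0.0659. The membrane protein TMEM67, CC2D2A and the scaffold RPGRIP1L had differences of 0.03, 0.05 and -0.05 that did not pass. NPHP4, the lowest member per exon length, was lower in every Nutlin-3 library, at 0.0899 to 0.0979 RPKM against 0.103 to 0.112 RPKM. Its difference of -0.11 did not pass (limma adjusted p = 0.336), and on the reads it was -0.23 and passed (limma voom adjusted p = 0.00904).

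Of the 2 centriolar genes 1 fell, beside 18.4% of all genes tested. ODF2, a protein of the appendages of the mother centriole that is needed to start a cilium, was at 1.68, 1.66 and 1.62 RPKM in DMSO and at 1.00, 1.09 and 1.07 RPKM in Nutlin-3 libraries. It fell to 63.9% of its DMSO level (difference -0.60, SE 0.0387, limma adjusted p = 3.42e-04), the largest change of any tested member. OFD1, a protein of the centriole's distal end and its satellites, was at 0.892 ± 0.0294 RPKM in DMSO and 0.891 ± 0.0574 RPKM in Nutlin-3 libraries (mean ± SD, n = 3 each), with an interval from -0.13 to 0.13.

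The 3 genes that sort lipidated proteins, phosphoinositides and receptors in the ciliary membrane all fell, beside 18.4% of all genes tested. TULP3, which brings receptors into the cilium together with IFT-A, was at 1.45, 1.35 and 1.40 RPKM in DMSO and at 1.06, 1.05 and 1.09 RPKM in Nutlin-3 libraries, 76.3% of the DMSO level (difference -0.36, SE 0.0343, limma adjusted p = 0.00113). INPP5E, a phosphatase that shapes the lipids of the ciliary membrane, was at 2.62, 2.49 and 2.47 RPKM in DMSO and at 2.09, 2.08 and 2.30 RPKM in Nutlin-3 libraries, 85.3% of the DMSO level (limma adjusted p = 0.0197). Nutlin-3 replicate 3 was closest to DMSO, and the groups did not overlap. The call of INPP5E ended without DMSO replicate 1 or 2 or Nutlin-3 replicate 1 or 2, with limma adjusted p from 0.0511 to 0.0667. ARL3, the GTPase that releases lipidated cargo inside the cilium, fell to 88.6% (limma adjusted p = 0.0101), and its call held without any 1 library. With the replicate number as a block the calls of INPP5E and ARL3 ended (limma adjusted p = 0.0714 and 0.0512).

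Per exon length the members span a range of levels from 1.07 exon-based RPKM (NPHP4) to 28.1 (TULP3) in DMSO, with a median of 4.95. Of the 45, 39 lay between 2 and 10, 5 were above 10 and 1 was under 2. TULP3, at 28.1 ± 0.978, and TCTN3, at 26.9 ± 0.430 exon-based RPKM (mean ± SD, n = 3), were the highest in DMSO, and the gap between them is about as wide as the spread of TULP3. With Nutlin-3 their order turned, with TCTN3 at 34.2 ± 0.537 and TULP3 at 21.5 ± 0.440. Next in DMSO came ARL3 at 15.7 ± 0.209, ODF2 at 11.9 ± 0.222 and KIF3B at 10.7 ± 0.542. ODF2 went from above KIF3B to below it, at 7.60 ± 0.341 against 12.3 ± 0.469 with Nutlin-3. In the middle of the order many neighbours did not differ beyond their spread, such as IFT20, BBS2, IFT22 and IFT88 at 4.95, 4.95, 4.93 and 4.89 in DMSO. These levels use the merged exons of all transcripts of a gene, which can be longer than the transcripts the cells make.

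**Figure D3:**
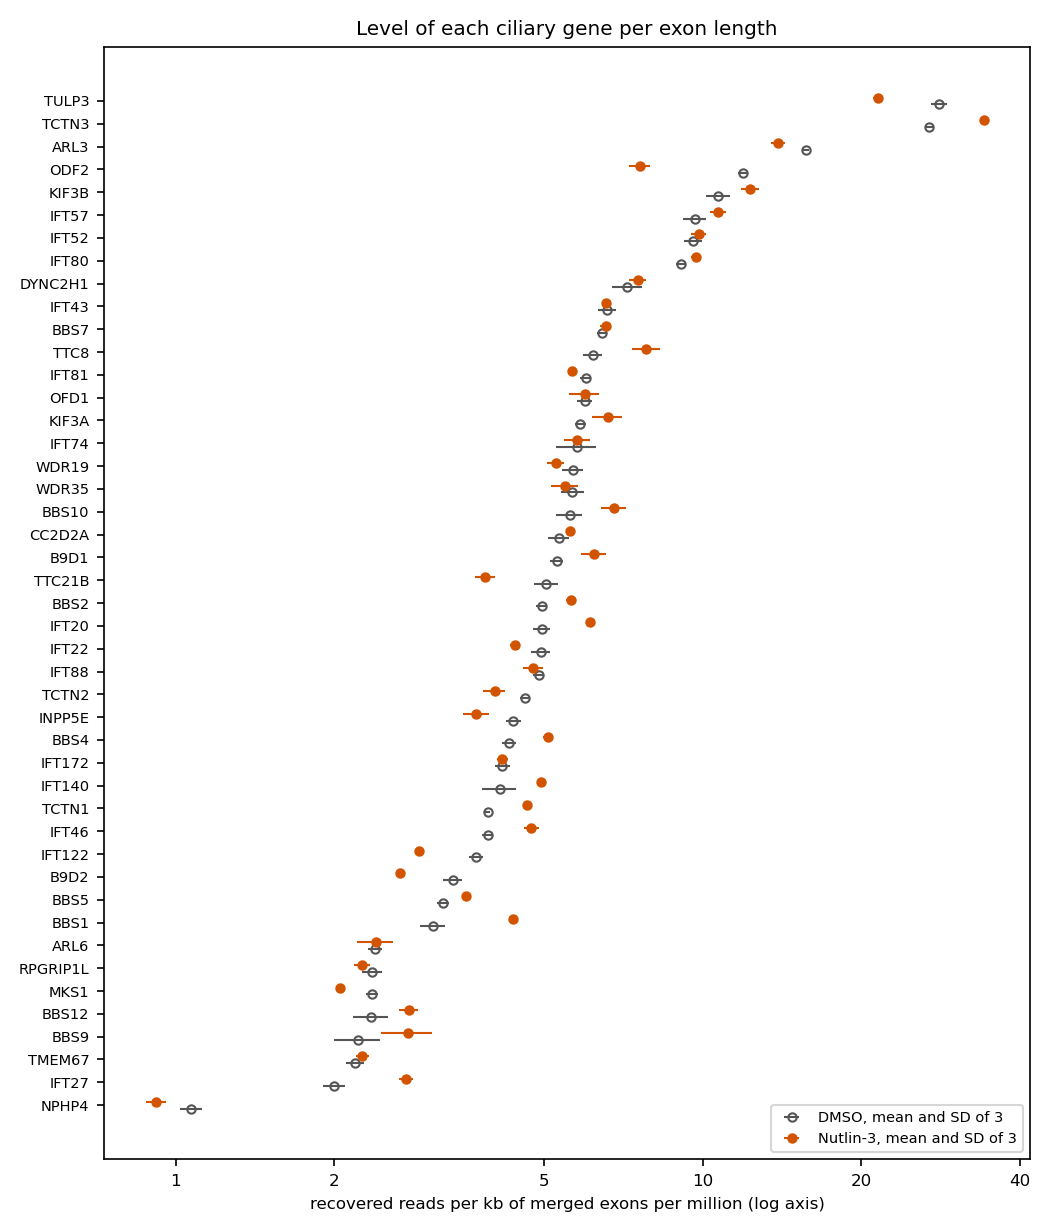
Level of each of the 45 ciliary genes as recovered reads per kilobase of merged exons and per M of library size, on a log axis. Genes are in order of the DMSO level, with points for the mean and bars for the SD of 3 libraries. TULP3 and TCTN3 stand above the others in both groups and exchange places, and NPHP4 is lowest at 1.07 in DMSO and 0.920 in Nutlin-3 libraries.

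Other genes of the same machines, from lists fixed beside the members, also moved both ways. Of 11 tested further IFT and motor genes 3 rose and 3 fell (median -0.05), beside 20.9% and 18.4% of all genes tested. The light intermediate chain of the ciliary dynein, DYNC2LI1, rose 1.32-fold (limma adjusted p = 5.73e-04) while WDR34, an intermediate chain of the same motor, fell to 63.6% (limma adjusted p = 7.97e-04). Of 19 tested further BBSome and transition zone genes 3 rose and 6 fell (median -0.03), beside the same shares of all genes. The ubiquitin ligase TRIM32 rose 1.41-fold (limma adjusted p = 1.75e-04), and TMEM107, a membrane protein of the transition zone, fell to 62.4% (limma adjusted p = 0.00411). On the recovered reads voom called 4 rises and 5 falls among 12 genes of the first of these lists. Among 20 of the second it called 4 rises and 9 falls, beside 25.6% and 23.9% of all genes tested that way.

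A list of distal appendage and ciliogenesis genes fell more often than it rose. Of 21 tested, 3 rose and 10 fell, beside 20.9% and 18.4% of all genes tested, with a median of -0.12. With a minimum mean of 0.5 RPKM 4 falls were left, where 22.4% of all genes tested fell. Of this list, SCLT1, FBF1, CEP83, CEP89, CEP162 and KIF24 had lower means and were not tested there. All 5 genes of the distal appendages in it, the spokes that dock the mother centriole at the membrane, fell: SCLT1 to 54.4%, FBF1 to 61.3%, CEP83 to 71.5%, CEP89 to 80.0% and CEP164 to 90.2% of their DMSO levels (limma adjusted p = 0.00559, 0.00147, 0.0231, 0.0151 and 0.0181). These 5 were named after their values were seen. FBF1 shares 49.6% of its exon length with AC087289.3 on the same strand. The call of CEP164 ended without DMSO replicate 1 or 3 or Nutlin-3 replicate 2 or 3 (limma adjusted p from 0.05 to 0.0624), that of CEP83 without any 1 library but DMSO replicate 2 (0.0528 to 0.0657), and that of CEP89 without DMSO replicate 2 (0.0525). Under quantile normalization the calls of CEP164 and CEP83 also ended (limma adjusted p = 0.0749 and 0.0589). KIF24, a kinesin that holds back cilium growth, fell most, to 34.1% (limma adjusted p = 8.14e-04), and EHD3, a membrane-shaping ATPase of early ciliary vesicles, rose most, 1.73-fold (limma adjusted p = 2.08e-04). The proliferation list, in which MKI67 and the other 7 genes fell, moved with these falls, at a summed 119 to 133 RPKM in DMSO and 39.4 to 43.0 RPKM in Nutlin-3 libraries, and its part in the changes of ciliary genes was not tested.

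**Figure D4:**
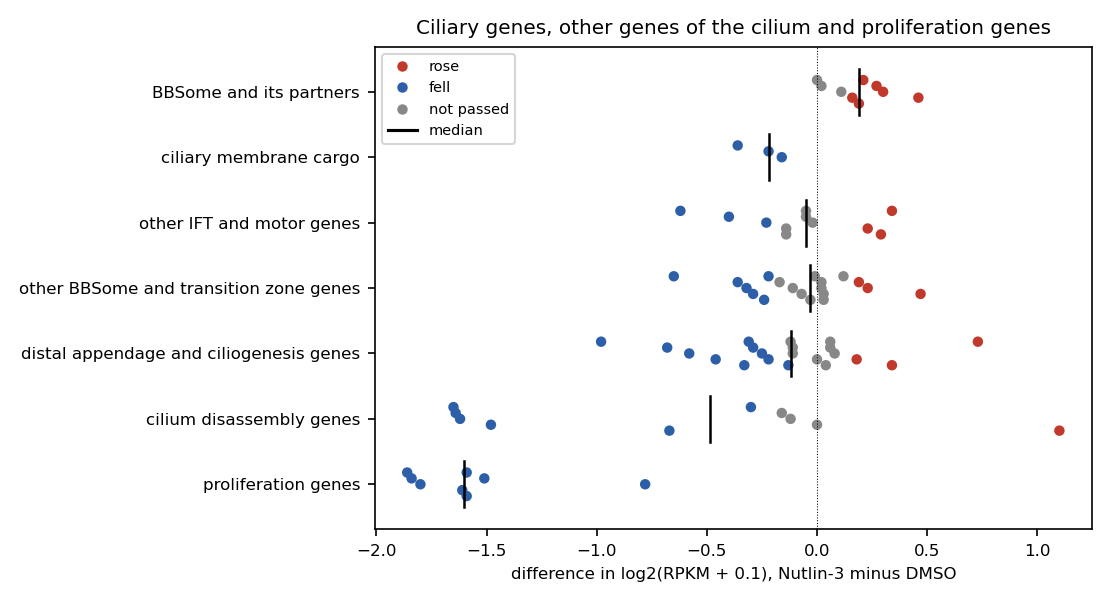
Difference in log2(RPKM + 0.1) between Nutlin-3 and DMSO for each tested gene of 2 member groups, 4 further lists of cilium genes and the proliferation genes, with the colour for the limma call and a black line for the list's median. The medians run from 0.19 for the BBSome group to -1.60 for the proliferation genes, and the distal appendage and ciliogenesis genes centre at -0.12.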

How the data were processed

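Poly(A) RNA of 6 RPE1 libraries was sequenced from stranded TruSeq libraries, per the labels' protocols. CASAVA 1.8.2, TopHat2, edgeR and hg19 are named in the submitters' processing notes without a role. For counter, annotation and strand setting, nothing was given in the sources used here. RPKM were deposited by the authors with 1 column per library, and each column name matched 1 sample title (0 columns unmapped). RPKM times gene span (GENCODE 29) was a whole multiple of a library's step, within 0.01 of a read, for 89.0% of values under 50 reads, against 25.3% with exon length. Reads were recovered from the span for 27538 IDs (28 members). For 8825 others (17 members) the smallest whole numbers with the ratios seen were taken, scaled to the nearest span, so they may be off by a whole factor. Recovered reads came to 29.7 to 42.8 M per library. The library size behind the RPKM was 0.987, 1 and 0.99 of them in DMSO replicates 1 to 3. In Nutlin-3 replicates 1 to 3 it was 0.942, 0.929 and 0.923 of them, which raises RPKM against reads in that group. The cause was not tested. The fits by voom used the same sizes, so they are no check of this scaling. A symbol was found for 52338 IDs, in GENCODE 29 or a gene name table. GENCODE 29 and RefSeq are on GRCh38, so coordinates are given for RefSeq promoters only.

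limma 3.58.1 in R 4.3.3 (lmFit, then eBayes with trend, and no term beside the group) was fitted on log2(RPKM + 0.1), with Benjamini-Hochberg adjustment over 19886 genes. The filter and pseudocount were set low because of the gene span. Folds and percentages of DMSO divide mean RPKM by mean RPKM. A design of 3 against 3 cannot go below p = 0.1 in an exact permutation test, so single genes rest on the fit across all genes. The alternatives were pseudocounts of 0.5 and 0.02 RPKM, a minimum mean of 0.5 RPKM and none, median-of-ratios and quantile scaling, limma voom on genes averaging 10 reads or more, leaving out each library, and the replicate number as a block. A variance trend on mean reads and voom with the block were added after the data were seen. The fits were tested on simulated data, where the fit used here made more false calls over all genes than one with the variance trend on mean reads, and fewer small p-values than chance gives among unchanged genes with read numbers like the members'. Replicates differed by more than sampling noise, with a chi-square per gene of 1.92 to 5.13 within groups, and each library counts as 1 sample.

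The members and all lists were chosen with earlier results of these data known. The rule for naming took the 8 members that rose most and the 8 that fell most past the threshold, the largest change of each of 7 member groups, and the largest rise and fall past the threshold of each related list. Other members are given by mean or range, but BBS9, which was not tested, by library. Other marker genes and names outside this rule were picked once their values were known. The 4 promoters printed in full were picked from the 6 the rule allows after their motif matches were seen.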

Additional observations from a re-analysis of the deposited data

How the results depend on the processing

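Of 24 members that passed, 16 kept the call under every alternative without a block in which they were tested. Without any 1 library 16 kept it. Of 20 that did not pass, 15 stayed so wherever they were tested, and no member's call reversed. Of all members 20 had a mean under 0.5 RPKM and were not tested with that minimum, IFT122, TTC21B and B9D2 among them. Leaving out 1 library at a time gave 10 to 14 members that rose, 7 to 9 that fell, 5 to 7 that passed and changed by at least 0.32 and a median of 0.01 to 0.04, with 3099 to 3655 of all genes up and 2768 to 3043 down. The number of members changed by at least 0.32 was 5, and became 2 with a pseudocount of 0.5 RPKM (also with a minimum mean of 0.5 RPKM), 8 with 0.02 RPKM and 10 by voom, with or without the replicate block. The members' median of 0.03 became 0.15 with a minimum mean of 0.5 RPKM, 0.11 with that and a pseudocount of 0.5 RPKM, both over 25 members, and 0.07 under quantile normalization, where the median of all genes was 0.027. The cause of the last was not tested. With the replicate number as a block 8 members rose and 6 fell (18.2% and 13.6%, against 14.9% and 12.9% of all genes). The numbers mark no shared culture or day in the labels. Deviations of same-numbered libraries correlated at -0.034, -0.0233 and -0.0134, and no library correlated best with its own number. Being deviations from means of 3 libraries, they cannot tell whether same-numbered libraries shared a culture or day. By voom with the replicate block 17 rose and 11 fell (37.8% and 24.4%, against 24.5% and 23.2% of all genes). Reads per library were fewest for B9D2 (106 to 182), which kept its call with the variance trend on mean reads (limma adjusted p = 0.0107). NPHP4 and BBS9, with spans of 129663 and 476825 bases, have RPKM near or under the pseudocount.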

Other observations

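A list of genes linked to taking the cilium down before mitosis had a median of -0.48 (-0.38 over 11 genes by voom on the recovered reads). TTBK2, with a difference of 0 that did not pass, was counted both here and among the distal appendage and ciliogenesis genes. Of 10 tested 1 rose and 6 fell, beside 20.9% and 18.4% of all genes tested. The microtubule-depolymerising kinesin KIF2C fell to 29.3% of its DMSO level, NEK2 to 30.3%, PLK1 to 31.7% and AURKA, the kinase that starts disassembly, to 34.0% (limma adjusted p = 1.37e-04, 3.21e-04, 2.66e-04 and 1.17e-04). All 4 also act in mitosis itself. PIFO, a protein of the ciliary base, rose 2.90-fold (limma adjusted p = 0.00435), from 0.152 RPKM and on 24 to 116 reads per library. Its difference was 1.1 and ran from 0.53 to 1.54 over the alternatives. NEDD9, the scaffold that activates AURKA, was under the filter and was 1.86-fold higher, which passed by limma voom on recovered reads (adjusted p = 2.48e-07). NEK2, PLK1, AURKA and NEDD9 were picked once their values were known.

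Of 10 transcription factors linked to ciliogenesis, 4 were tested. RFX5, better known as a regulator of MHC class II genes, rose 1.30-fold (limma adjusted p = 3.39e-04). MCIDAS, a driver of multiciliated cell fate, fell to 50.9% (limma adjusted p = 2.66e-04) on 58 to 167 reads per library. RFX1 and RFX7 did not pass, with ratios of 0.939 and 1.02. RFX2, RFX3, MYB and TP73 were under the filter, at 64.2%, 86.8%, 25.2% and 32.1% of their DMSO levels, and passed as lower by limma voom on recovered reads (adjusted p = 3.79e-06, 0.0303, 1.87e-08 and 3.56e-04). These last 6 genes were picked once their values were known. TP73 among them rested on 5 to 29 reads per library. FOXJ1, the master factor of motile cilia, was at 0 in every library.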
